A study of Mus musculus with 25 samples.

Results

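The genes described here encode the proteasome: its subunits, the chaperones that assemble it, and its activators and inhibitor. Members were the protein-coding genes of the count table whose symbol is *Psm* followed by a letter from a to g and a number, with a mean of at least 1 read over the 25 libraries. The symbols of 54 of 55375 gene rows matched, and 50 were kept after 4 pseudogenes (*Psmb5-ps*, *Psmb7-ps2*, *Psmb6-ps* and *Psmb6-ps2*) were left out. Of the 50, 49 are proteasome genes. The remaining gene, *Psmc3ip*, shares the symbol but encodes a partner of the meiotic recombinases, and it is reported as such throughout. *Psmd10* is X-linked and was not part of the main test, which was restricted to autosomes, so 49 members were tested, 48 of them proteasome genes.

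The proteasome is the protease that degrades proteins marked with ubiquitin. Its 20S core is a barrel of alpha rings, which gate the entry, and beta rings, of which *Psmb5*, *Psmb6* and *Psmb7* encode the catalytic subunits. The 19S particle binds the ends of the barrel, where ATPases unfold the substrate and non-ATPase subunits bind and remove ubiquitin. In immune cells the catalytic subunits are replaced by the inducible *Psmb8*, *Psmb9* and *Psmb10*, and *Psme1* and *Psme2* encode an activator that opens the gate without ubiquitin. In the early embryo, degradation of stored maternal proteins accompanies the start of zygotic transcription. By role, the members divide into 8 alpha subunits (including *Psma8*, known from testis), 7 constitutive beta subunits, 4 inducible or tissue-specific catalytic subunits, 6 ATPases and 11 non-ATPase subunits of the 19S particle, 3 chaperones of 19S assembly, 4 chaperones of 20S assembly, 5 activators and 1 inhibitor. The 32 alpha, constitutive beta, ATPase and non-ATPase genes are called core subunits below.

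The 25 libraries were made from pools of 5 to 10 wild-type mouse 2-cell embryos, collected 28 to 29 h after insemination or activation. IVF embryos (4 pools) came from C57BL/6N oocytes, from females 4 to 20 weeks old, and DBA2 sperm. All other embryos were made by somatic cell nuclear transfer (SCNT) with BDF1 oocytes and cumulus cell nuclei of BDF1 females, so the method and the mother's strain cannot be told apart. SCNT controls (2 pools), and SCNT embryos injected with *Kdm3a* mRNA (2) or *Kdm4d* mRNA (2), which encode histone H3 lysine 9 demethylases, were made with cytochalasin B. For these, 10 pL of mRNA at 1500 ng/μL was injected 5 to 6 h after activation. The drug-treated groups and their own control (LatA control, 2 pools) were made with latrunculin A (LatA): trichostatin A (TSA, a histone deacetylase inhibitor, 25 nM for 8 h; 2), the G9a inhibitors RK-701 (3) and A366 (2) at 1 μM for 24 h, and TSA combined with RK-701 (2), A366 (2) or the G9a inhibitor UNC0638 (2). G9a is a histone H3 lysine 9 methyltransferase. Nothing in the labels says that pools came from separate sessions or females, so p-values measure only the spread between pools. In bulk pools, fewer cells with a transcript and less of it per cell cannot be told apart.

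Between 6662727 and 21188688 reads (median 13994840) fell on genes in a library. *Kdm3a* reached 3116 to 3465 CPM (reads scaled to a common library total) in the *Kdm3a*-injected embryos and 109 to 266 CPM elsewhere, and *Kdm4d* 12540 to 18542 CPM against 0.718 to 5.08 CPM. LatA control replicate 2 and TSA replicate 1 lay apart from their groups on the third principal component, and the LatA controls had the lowest within-group correlation of log CPM (0.896, others 0.909 to 0.943). The share of mitochondrial reads was 3.57% to 4.36% in the TSA co-treated groups, 5.85% to 8.63% in the LatA controls, 8.28% to 10.2% in the SCNT controls and 4.65% to 5.78% in IVF embryos. The summed level of 10 cumulus and granulosa markers was 32.6 to 71.4 CPM, highest with TSA alone (59.4 and 71.4 CPM) and A366 alone (52.0 and 54.5 CPM), and its part in the results was not tested. Most of it was *Amhr2* (mean 34.1 CPM), *Tnfaip6*, *Ptgs2* and *Cyp19a1* reached 11.3, 7.27 and 5.89 CPM and were found in every library, and the other 6 reached at most 1.92 CPM. Of the white blood cell markers reported here, *Cd68* reached 6.29 CPM, and *Ptprc*, *Cd3e*, *Adgre1* and *Csf1r* were under 0.5 CPM in every library. Spans of 24 members overlap another gene row, 19 of them on the other strand, and counting ignored strand, so that some reads of these members could not be assigned to one gene.

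Proteasome genes were among the abundant transcripts of all 11 groups. Compared per length, as TPM (reads per exon length, scaled to a common total over autosomal genes), *Psma6* had the highest mean over the 25 libraries (968 TPM), followed by *Psmd7* (724), *Psma4* (636), *Psmb2* (521) and *Psmb6* (499). At the other end were *Psmb11* (1.14 TPM), the catalytic subunit known from thymus, *Psma8* (1.27), *Psmb8* (1.58), *Psme2b* (4.16) and *Psmb9* (4.96). Apart from *Psma8*, the core subunits ranged from 54.4 TPM (*Psmd13*) to 968 TPM, and each stood above the inducible *Psmb10* (51.3 TPM). The group with the highest mean was TSA and RK-701 for 25 of the 50 members, RK-701 alone for 8 and *Kdm4d* mRNA for 4. The lowest group was A366 for 14 members, IVF for 9, TSA for 7 and *Kdm3a* mRNA for 6, and no member was lowest with *Kdm4d* mRNA, TSA and RK-701 or TSA and A366. How often each group was highest or lowest over all genes was not counted, and the groups differ in their number of pools. These counts therefore describe the members without setting them apart from other genes.

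Summed over the 15 constitutive 20S genes, the level was 3533 to 3871 TPM in the 4 IVF libraries, below all 21 SCNT libraries on this scale. TPM sums carry no TMM factors. On the TMM-scaled CPM used in the tests below, which is not divided by length, this separation did not hold. There, the summed level in TSA replicate 1 and in LatA control replicate 2 lay below that of every IVF library. The 2 SCNT controls held 4903 and 6914 TPM and the LatA controls 4874 and 5937 TPM. The highest sums were found with TSA and RK-701 (7176 and 7640 TPM), and TSA and A366 gave 6889 and 6943 TPM, which overlapped the higher SCNT control. TSA and UNC0638 gave 5088 and 5848 TPM, inside the range of the LatA controls. Summed over the 17 genes of the 19S particle, IVF embryos (3002 to 3553 TPM) lay inside the range of the SCNT controls (2987 and 4224 TPM) and of the LatA controls (2852 and 4167 TPM). The co-treated libraries held 5083 and 5107 TPM with RK-701 and 4630 and 4644 TPM with A366, above every library of the other groups on the TPM scale. With UNC0638 the 19S sums were 4016 and 4187 TPM, no higher than 4280 TPM, the higher *Kdm4d* library. The 2 libraries of each control group thus differed by more than many of the treatments did, and they enter every comparison below that uses an untreated control.

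**Figure D1:**
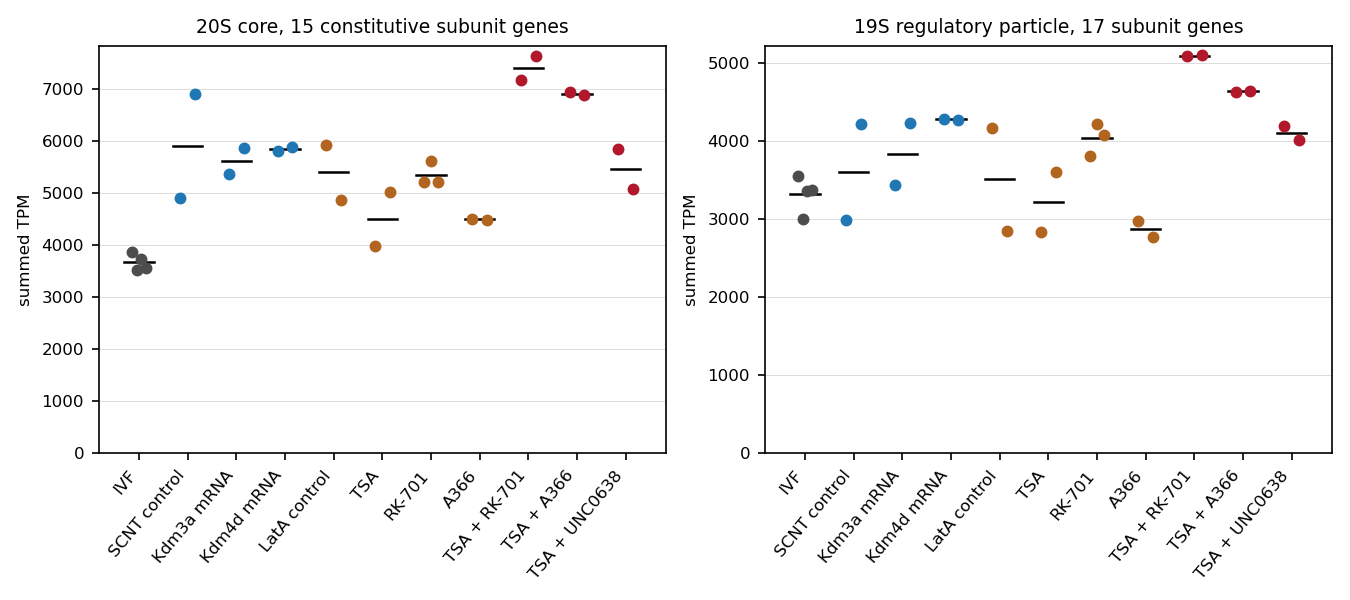
Summed level (TPM over autosomal genes, without TMM factors) of the 15 constitutive 20S genes (left) and the 17 genes of the 19S particle (right). Each library is 1 point, a bar marks the group mean and both axes start at 0. In the 20S panel the 4 IVF libraries lie at 3533 to 3871 TPM, below all SCNT libraries on this scale but not on TMM-scaled CPM. In the 19S panel the libraries treated with TSA and RK-701 (5083 and 5107 TPM) and with TSA and A366 (4630 and 4644 TPM) lie above all others on the TPM scale.

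Promoter windows of 250 bases before to 50 bases after the start were at hand for 42 of the 50 members (RefSeq, GRCm38.p6). They were searched on both strands for 3 motifs known from the control of proteasome genes: the antioxidant response element core TGANNNNGC, which Nrf1 and Nrf2 bind, the CCAAT box bound by NF-Y, and a form of the interferon-stimulated response element with 2 GAAA copies separated by 2 bases. The first was found in 57.8% of 45 member windows against 41.3% of all 32851 windows, CCAAT in 33.3% against 37.4%, and the interferon element in 11.1% against 3.44%. The windows with the interferon element were those of *Psmb3*, *Psmd4*, *Psmd9*, *Psme1* and *Psmg4*. A match describes letters and not binding. 4 windows are shown because their genes carry the comparisons below: *Psmd12* and *Psmd14*, core subunits that rose in each co-treatment, and *Psme1* and *Psmb8*, which moved otherwise. Capitals mark the antioxidant response core and CCAAT in the first pair, where the 2 last CCAAT matches of *Psmd14*, on opposite strands, overlap. In the second pair they mark the interferon element, of which the *Psmb8* window has none. The windows of *Psmb8* and *Psme1* lie downstream of the starts of their gene rows (chr17:34197721 and chr14:55578123). Bases before those starts were not searched.
*Psmd12* promoter, chr11:107479278-107479577, plus strand: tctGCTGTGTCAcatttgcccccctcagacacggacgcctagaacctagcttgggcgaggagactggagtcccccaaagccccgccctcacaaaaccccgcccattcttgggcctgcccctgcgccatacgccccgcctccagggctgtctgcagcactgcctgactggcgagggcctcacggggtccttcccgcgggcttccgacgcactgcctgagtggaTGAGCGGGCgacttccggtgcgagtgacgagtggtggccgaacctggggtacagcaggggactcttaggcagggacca
*Psmd14* promoter, chr2:61711444-61711743, plus strand: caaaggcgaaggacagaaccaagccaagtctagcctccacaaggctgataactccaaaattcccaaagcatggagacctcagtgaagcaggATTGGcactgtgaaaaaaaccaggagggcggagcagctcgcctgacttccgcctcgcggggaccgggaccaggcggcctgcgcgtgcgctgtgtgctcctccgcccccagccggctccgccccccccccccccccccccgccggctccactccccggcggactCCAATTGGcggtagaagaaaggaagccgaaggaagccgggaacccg
*Psme1* promoter, chr14:55578244-55578543, plus strand: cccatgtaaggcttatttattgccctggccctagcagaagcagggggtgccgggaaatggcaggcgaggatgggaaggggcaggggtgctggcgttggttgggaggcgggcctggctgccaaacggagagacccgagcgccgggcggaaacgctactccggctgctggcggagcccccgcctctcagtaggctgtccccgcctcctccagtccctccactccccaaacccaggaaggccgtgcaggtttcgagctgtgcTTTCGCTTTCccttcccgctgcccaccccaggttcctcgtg
*Psmb8* promoter, chr17:34197945-34198244, plus strand: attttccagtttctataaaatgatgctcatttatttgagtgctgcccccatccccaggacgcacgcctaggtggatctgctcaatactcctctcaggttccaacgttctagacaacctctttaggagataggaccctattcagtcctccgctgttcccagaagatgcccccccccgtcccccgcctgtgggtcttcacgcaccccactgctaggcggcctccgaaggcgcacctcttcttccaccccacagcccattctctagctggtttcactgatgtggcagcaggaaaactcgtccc

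The first comparison asked how untreated SCNT embryos differ from fertilized ones, setting the mean of both untreated control groups (4 libraries) against 4 IVF libraries. Of the 49 members, 13 were higher and 8 lower in SCNT embryos in edgeR's quasi-likelihood test (adjusted p under 0.05), where 29.2% of the 25794 genes were called (14% higher and 15.1% lower). The median log2 fold change was 0.13 over the members (-0.03 without LatA control replicate 1) and 0.00 over all genes. *Psma7*, an alpha subunit, held 48.4, 49.9, 68.1 and 51.4 CPM in IVF embryos, 210 and 335 CPM in SCNT controls and 245 and 196 CPM in LatA controls. The groups did not overlap, and *Psma7* was 4.50-fold higher (log2 2.17 ± 0.20 SE, adjusted p = 4.09e-09). *Psme1*, a subunit of the ubiquitin-independent activator, held 8.23 to 11.5 CPM in IVF embryos, 25.3 and 25.6 CPM in SCNT controls and 24.3 and 35.9 CPM in LatA controls (log2 1.56 ± 0.21, adjusted p = 1.94e-06). *Psmb8* held 0.209 to 0.713 CPM in IVF embryos against 2.23 and 2.07 CPM in SCNT controls and 4.99 and 2.7 CPM in LatA controls (log2 2.80 ± 0.75, adjusted p = 0.0058). The inducible subunits rose together: *Psmb9* by 2.08 ± 0.43 (adjusted p = 0.000529) and *Psmb10* by 0.70 ± 0.21 (adjusted p = 0.0148), both on the log2 scale.

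Of the 8 alpha subunits 4 were higher (*Psma4*, *Psma5*, *Psma6* and *Psma7*) and none was lower, and of the 7 constitutive beta subunits *Psmb3* (1.15 ± 0.15) and *Psmb4* (0.63 ± 0.17) were higher while *Psmb2* (-0.41 ± 0.15) and *Psmb5* (-0.72 ± 0.19) were lower. None of the 6 ATPases was called. *Psmd2*, a scaffold subunit of the 19S base, was higher (0.49 ± 0.15), and the 19S lid subunits *Psmd6* (-0.51 ± 0.17), *Psmd7* (-0.53 ± 0.17) and *Psmd11* (-0.67 ± 0.16) were lower. The 20S chaperones *Psmg2* (1.49 ± 0.23) and *Psmg4* (1.06 ± 0.31) were higher. *Psme4*, the activator known from histone degradation, held 783 to 1148 CPM in IVF embryos and 568 to 601 CPM in the 4 controls (log2 -0.71 ± 0.13, adjusted p = 0.000116). *Psmb11* (-1.68 ± 0.59) and *Psmc3ip* (-1.0 ± 0.17) were lower too. The 8 markers of the 2-cell embryo summed to 1003 to 1307 CPM in IVF embryos and 410 to 747 CPM in the 4 controls, and 6 oocyte markers to 480 to 535 CPM and 204 to 290 CPM, and their part in these differences was not tested. With each library left out in turn, 12 of the 21 genes remained called in every fit, among them *Psma7*, *Psmb8*, *Psmb9*, *Psme1*, *Psme4* and *Psmg2*. When libraries were scaled by their totals alone, the median of all genes moved by 0.22 and the calls were 21 higher and 4 lower, so the balance of higher and lower subunits depended on the scaling.

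**Figure D2:**
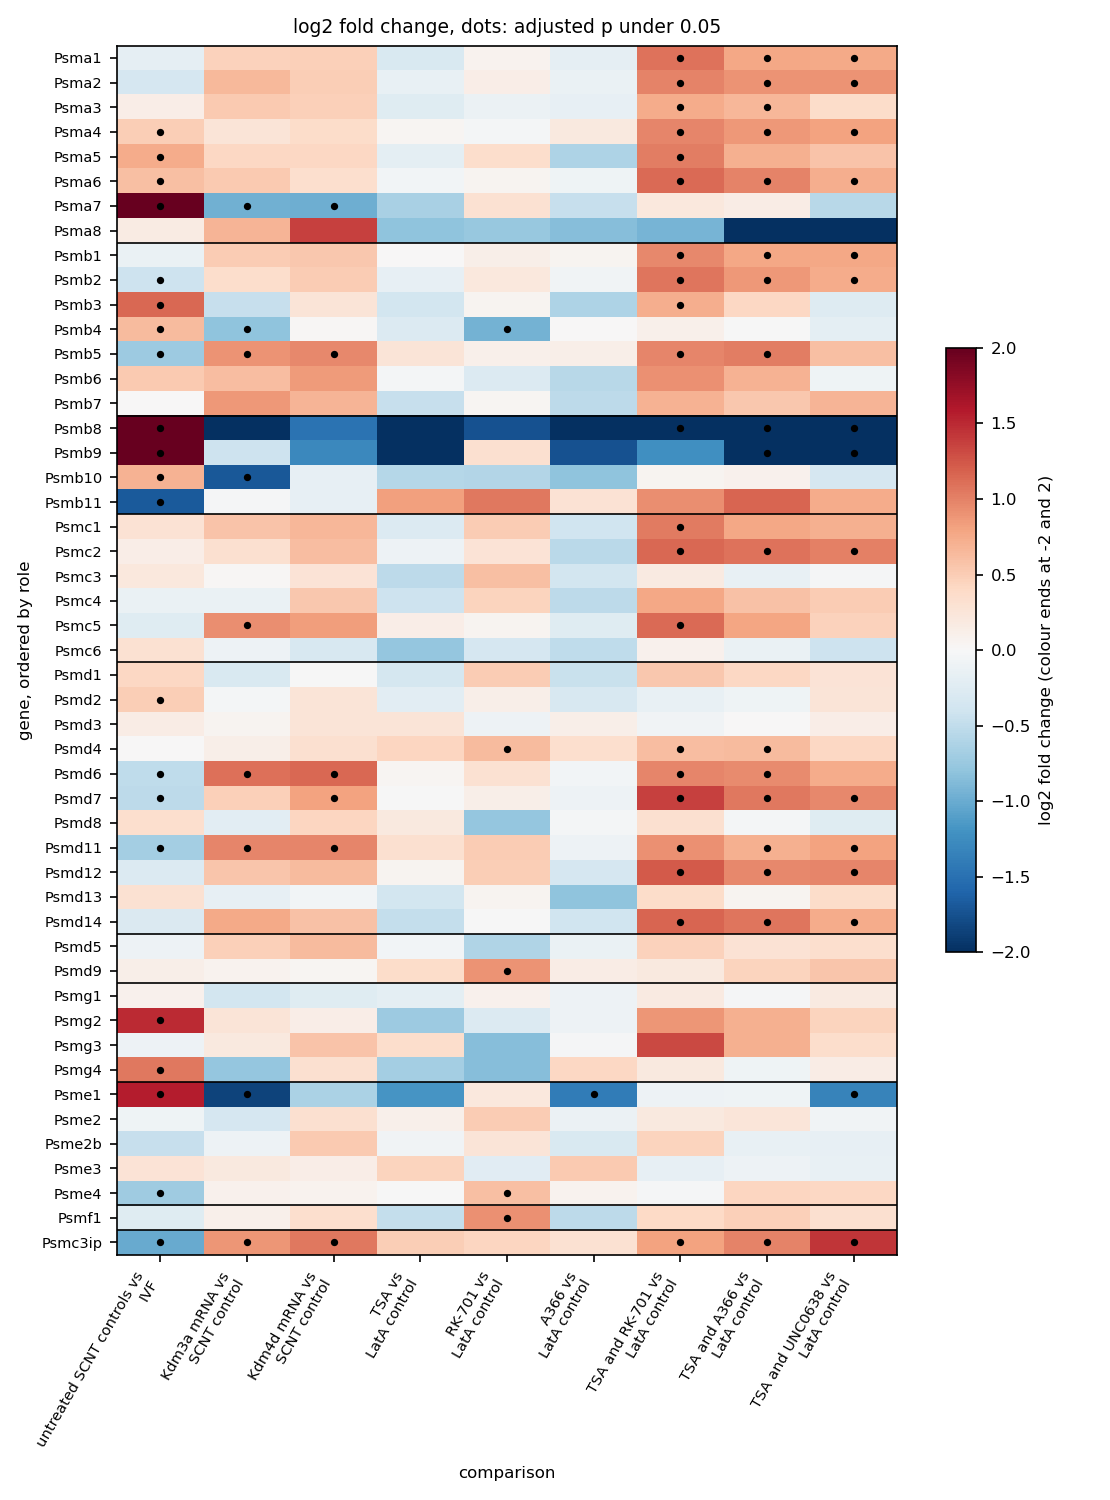
Log2 fold changes (colour, ending at -2 and 2) of the 49 members tested, ordered by role from alpha subunits at the top to *Psmc3ip* at the bottom, in 9 comparisons; dots mark adjusted p under 0.05 in edgeR's quasi-likelihood test. In the 3 co-treatments, which share the 2 LatA control libraries, dots in the core subunits stand on higher values only (19, 15 and 11 of 32 genes), while *Psmb8* was lower in all 3; in the comparison with IVF the core subunits were called in both directions (7 higher, 5 lower).

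The injections asked whether removal of H3K9 methylation changes expression in SCNT embryos. Against the 2 SCNT controls, *Kdm3a* mRNA gave 5 members higher and 4 lower, where 6.14% of genes were called (4.19% higher and 1.95% lower), and *Kdm4d* mRNA gave 5 higher and 1 lower, where 5.15% were called (3.88% higher and 1.27% lower). The median log2 fold change of the members was 0.20 and 0.36, beside -0.04 over all genes in each. The 2 injections share the control libraries. *Psmd6*, a 19S lid subunit, held 57.6 and 87.2 CPM in the controls, 142 and 168 CPM with *Kdm3a* and 164 and 158 CPM with *Kdm4d*, a log2 rise of 1.10 ± 0.24 (adjusted p = 0.00625) and 1.15 ± 0.24 (adjusted p = 0.00589). *Psmd11*, *Psmb5* and *Psmc3ip* were also higher with either mRNA. The SCNT controls of these comparisons also entered the one with IVF embryos, in which these 4 genes were lower. *Psmc5*, a 19S ATPase (0.94 ± 0.28), was called with *Kdm3a*, and *Psmd7* (0.81 ± 0.24) with *Kdm4d*. *Psma7* held 105 and 177 CPM with *Kdm3a* and 161 and 115 CPM with *Kdm4d*, and was lower by log2 -0.95 ± 0.27 and -0.98 ± 0.27.

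The inducible *Psmb10* separated the injections. It held 22.3 and 37.2 CPM in SCNT controls, 8.64 and 9.66 CPM with *Kdm3a* (log2 -1.70 ± 0.31, adjusted p = 0.00137) and 24.4 and 28.7 CPM with *Kdm4d*. It was the 1 member called between the injections (higher with *Kdm4d*, log2 1.54 ± 0.31, adjusted p = 0.0226), where 0.345% of genes were called. *Psme1* held 6.34 and 7.87 CPM with *Kdm3a*, below the SCNT controls (log2 -1.84 ± 0.30, adjusted p = 0.000368), and 17 and 15.6 CPM with *Kdm4d*. *Psmb4* was lower with *Kdm3a* as well (-0.81 ± 0.25). The 8 markers of the 2-cell embryo summed to 1348 and 1715 CPM with *Kdm3a*, 697 and 747 CPM in the SCNT controls and 689 and 801 CPM with *Kdm4d*, and their part in these differences was not tested. *Psmb10* and *Psme1* remained called with *Kdm3a* whichever library was left out. The other calls moved with single libraries: with *Kdm3a* the count was 3 without SCNT control replicate 1, 16 without SCNT control replicate 2 and 3 without *Kdm3a* replicate 2, and with *Kdm4d* it was 1, 16, 2 and 1 without SCNT control replicates 1 and 2 and *Kdm4d* replicates 1 and 2. The call of *Psmb10* between the injections was lost without any 1 of the 4 libraries. Scaled by totals alone, which moved the median of all genes to -0.33 and -0.31, the calls were 1 higher and 5 lower with *Kdm3a*, with a members' median of -0.10, and 2 higher and 1 lower with *Kdm4d*; with DESeq2's size factors they were 3 higher and 4 lower, and 3 higher and 1 lower.

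Single drugs were compared with the 2 LatA controls. The LatA controls themselves differed from the SCNT controls in no member in edgeR's test (4 at an unadjusted p under 0.05, none by DESeq2, and 0.0116% of all genes called). With TSA alone no member was called (8 at an unadjusted p under 0.05, and 3, all lower, by DESeq2), where 0.372% of genes were, and the median was -0.16 (-0.41 without LatA control replicate 2 and 0.14 without replicate 1). *Psmd14*, the 19S deubiquitinase, held 147 and 209 CPM with TSA beside 305 and 191 CPM in the LatA controls, with an interval of the log2 difference from -0.94 to -0.01 and an adjusted p of 0.398. The TSA and control libraries overlapped for this subunit, as they did for *Psmd7* (199 and 335 CPM with TSA, 337 and 202 CPM in controls). Without LatA control replicate 2 the TSA count was 4.

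RK-701 alone gave 4 members higher and 1 lower, where 5.47% of genes were called (2.68% higher and 2.79% lower), and the members' median was 0.12 (-0.11 without LatA control replicate 2 and 0.43 without replicate 1). *Psmf1*, the inhibitor, held 44.8, 38.1 and 41.0 CPM beside 22.3 and 21.5 CPM in LatA controls (log2 0.92 ± 0.25, adjusted p = 0.0294). *Psmd9*, a 19S chaperone (0.89 ± 0.27), *Psmd4*, a ubiquitin receptor (0.64 ± 0.15), and *Psme4* (0.61 ± 0.17) were higher, and *Psmb4* was lower (-0.94 ± 0.22, adjusted p = 0.0109). A366 alone lowered 1 member, *Psme1*, where 0.132% of genes were called (0.093% higher and 0.0388% lower): it held 11.5 and 11.3 CPM beside 24.3 and 35.9 CPM (log2 -1.40 ± 0.29, adjusted p = 0.0433). None of these calls remained through every library left out. The count with RK-701 was 11 without LatA control replicate 1, 0 without replicate 2, and 2 and 1 without RK-701 replicates 1 and 3, and with A366 it was 5 without LatA control replicate 2 and 0 without either A366 library. Without both libraries that lay apart, the counts were 0 with RK-701 and 9 with A366. In a fit of the compared libraries alone they were 0 with either drug.

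In each combination of TSA with a G9a inhibitor some core subunits were called higher than in the LatA controls, the fewest with UNC0638. The 3 co-treatments share the LatA controls, so their counts are not independent of each other. With TSA and RK-701, 20 members were higher and 1 lower, where 9.65% of genes were called (6.42% higher and 3.23% lower), and the median was 0.69 over the members and -0.11 over all genes. With TSA and A366, 16 were higher and 2 lower, where 9.21% were called (5.78% higher and 3.43% lower), with medians of 0.55 and -0.12. With TSA and UNC0638, 12 were higher and 3 lower, where 9.03% were called (5.97% higher and 3.06% lower), with medians of 0.37 and -0.08. All higher calls except *Psmc3ip* were core subunits: 19, 15 and 11 of 32. They included 6, 5 and 4 of the 8 alpha subunits, 4, 3 and 2 of the 7 constitutive beta subunits, 3, 1 and 1 of the 6 ATPases, and 6, 6 and 4 of the 11 non-ATPase subunits. None of the chaperones or the inhibitor was called in any of the 3.

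*Psmd7*, the 19S subunit that pairs with the deubiquitinase, held 337 and 202 CPM in LatA controls, 689 and 697 CPM with RK-701, 607 and 512 CPM with A366 and 533 and 516 CPM with UNC0638. All 6 co-treated libraries lay above both controls. The log2 rises of *Psmd7* were 1.36 ± 0.25 (adjusted p = 0.000766), 1.05 ± 0.24 (0.00623) and 0.96 ± 0.24 (0.0118). Its partner *Psmd14* held 508 and 606, 545 and 498, and 477 and 359 CPM in the same order, with rises of 1.17 ± 0.24 (adjusted p = 0.00221), 1.07 ± 0.24 (0.0047) and 0.75 ± 0.24 (0.0458). *Psma4*, an alpha subunit with closer replicates, held 279 and 234 CPM in controls, 459 and 548 CPM with RK-701, 492 and 448 CPM with A366 and 470 and 428 CPM with UNC0638. It rose by 0.97 ± 0.17 (adjusted p = 0.000706), 0.87 ± 0.17 (0.00182) and 0.81 ± 0.17 (0.00324). *Psmd12*, a lid subunit, rose by 1.23 ± 0.25, 0.96 ± 0.25 and 0.98 ± 0.25, and *Psma6* by 1.13 ± 0.23, 0.99 ± 0.23 and 0.72 ± 0.23.

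Called higher in each of the 3 co-treatments were 12 genes, namely *Psma1*, *Psma2*, *Psma4*, *Psma6*, *Psmb1*, *Psmb2*, *Psmc2*, *Psmd7*, *Psmd11*, *Psmd12*, *Psmd14* and *Psmc3ip*. *Psmc2*, an ATPase of the ring that unfolds substrates, rose by 1.15 ± 0.32, 1.09 ± 0.32 and 1.00 ± 0.32. *Psmc1* (1.04 ± 0.25), *Psmc5* (1.13 ± 0.28), *Psma5* (1.02 ± 0.33) and *Psmb3* (0.72 ± 0.21) were called with RK-701, and *Psma3*, *Psmb5*, *Psmd4* and *Psmd6* with RK-701 and with A366. *Psmc3ip*, no proteasome gene, rose by 0.80 ± 0.24, 0.99 ± 0.24 and 1.42 ± 0.24. The 2-cell markers summed to 410 and 509 CPM in the LatA controls, 471 and 504 CPM with RK-701, 444 and 521 CPM with A366 and 1544 and 1583 CPM with UNC0638. The part of these markers in the calls was not tested.

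The counts rested in part on single libraries. Without LatA control replicate 2 they were 5, 3 and 4. They were 12 and 10 without TSA and RK-701 replicates 1 and 2, 2 and 9 without TSA and A366 replicates 1 and 2, and 4 without TSA and UNC0638 replicate 1. Without both libraries that lay apart they were 8, 3 and 5, and 8, 3 and 4 of the genes called with all libraries remained. *Psma1*, *Psma4*, *Psmb2* and *Psmd7* with RK-701, *Psma4* with A366, and *Psmb8*, *Psmb9* and *Psmc3ip* with UNC0638 remained called through every library left out. Scaled by totals alone, which put the median of all genes at -0.40, -0.39 and -0.35, the calls were 10 higher and 1 lower, 6 higher and 2 lower, and 2 higher and 4 lower. Fitted with the libraries of each comparison alone, 2 against 2 with no spread shared with other groups, the counts were 2, 0 and 3. No median of the members fell below 0 under any alternative (lowest 0.35, 0.28 and 0.10).

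Of the inducible catalytic subunits, *Psmb8* was lower in all 3 co-treatments and *Psmb9* with A366 and UNC0638, and *Psmb10* was called in none. *Psmb8* had 92 and 29 reads (4.99 and 2.7 CPM) in the LatA controls, 1 and 1 reads with TSA and RK-701, 0 and 6 reads with TSA and A366 and none in either library with TSA and UNC0638. The tests of *Psmb8* gave adjusted p-values of 0.00529, 0.0185 and 0.00124. Pooled over libraries and scaled, the controls held 56.6 times the level found with RK-701 (95% counting interval 15.3 to 473) and 19.9 times that with A366 (8.88 to 55.3), and with UNC0638 *Psmb8* was at least 16.9-fold lower at a floor of 3 reads per library. Such intervals cover counting error only, since reads carried no molecular identifiers. With TSA alone it had 3 and 1 reads, with A366 alone 6 and 7, and with RK-701 alone 29, 14 and 5, and none of these was called. Low levels of *Psmb8* were seen in every TSA group, at a depth where a library held few reads of it. They were not particular to TSA: *Psmb8* held 0.209 to 0.713 CPM in IVF embryos and 0.314 and 0.342 CPM with *Kdm3a* mRNA. With *Kdm4d* mRNA it held 1.13 and 0.421 CPM, and with A366 alone 0.503 and 0.480 CPM.

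*Psmb9*, which lies beside *Psmb8* in the major histocompatibility complex (mm10 chr17:34181987-34187764 and chr17:34197721-34201454), had 158 and 28 reads in the LatA controls, 7 and 13 with TSA and A366 (log2 -3.01 ± 0.64, adjusted p = 0.00338) and 2 and 3 with TSA and UNC0638 (adjusted p = 0.00016). The control level was 33.6 times that of the UNC0638 libraries (14.1 to 105). With TSA and RK-701 it had 38 and 27 reads and was not called, and with RK-701 alone it held 7.14, 9.23 and 4.77 CPM, the highest group mean of the 11. Its span overlaps *Tap1* on the other strand. *Psmb10* held 29.0 and 36.4 CPM in the LatA controls and 21.5 to 40.6 CPM over the 6 co-treated libraries, so these groups overlapped. *Psmb11* stayed under 5 CPM in every library and was called only between untreated SCNT and IVF embryos.

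As a share of its pair with the constitutive subunit it replaces, on the TPM scale, *Psmb8* made up 0.171% to 0.610% of *Psmb5* and *Psmb8* in IVF embryos, 2.25% and 4.34% in SCNT controls, 3.30% and 6.46% in LatA controls and 0.251% and 0.252% with *Kdm3a* mRNA. *Psmb9* made up 0.980% and 2.75% of *Psmb6* and *Psmb9* in LatA controls, 1.87% to 4.30% with RK-701 and 0.0490% and 0.103% with TSA and UNC0638. *Psmb10* had the largest share of its pair, at 18% to 24.4% of *Psmb7* and *Psmb10* in IVF embryos, 27.7% and 30.5% in SCNT controls and 6.2% and 6.47% with *Kdm3a* mRNA. The 2 libraries differed most in the LatA controls (22.5% and 45.6%) and with TSA alone (22.2% and 41.9%). The constitutive catalytic subunit was the major transcript of each pair in every group.

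*Psme1* followed neither the core nor *Psmb8*. It held 25.0 and 31.0 CPM with TSA and RK-701 and 30.5 and 25.8 CPM with TSA and A366, inside or beside the control range of 24.3 and 35.9 CPM, but 14.1 and 9.72 CPM with TSA and UNC0638 (log2 -1.33 ± 0.29, adjusted p = 0.00377). With TSA alone it held 10.2 and 16.3 CPM and was not called. Its partner *Psme2* held 41.8 and 54.6, 52.9 and 46.5, and 41.7 and 38.5 CPM in the 3 co-treatments beside 47.5 and 36.8 CPM in controls, and was called in no comparison. *Psme2b* is a near copy of *Psme2*. Only unique alignments were kept, so its 1.12 and 1.41 CPM in controls leave out reads that match both genes equally. *Psme1* overlaps *Emc9* on the other strand.

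**Figure D3:**
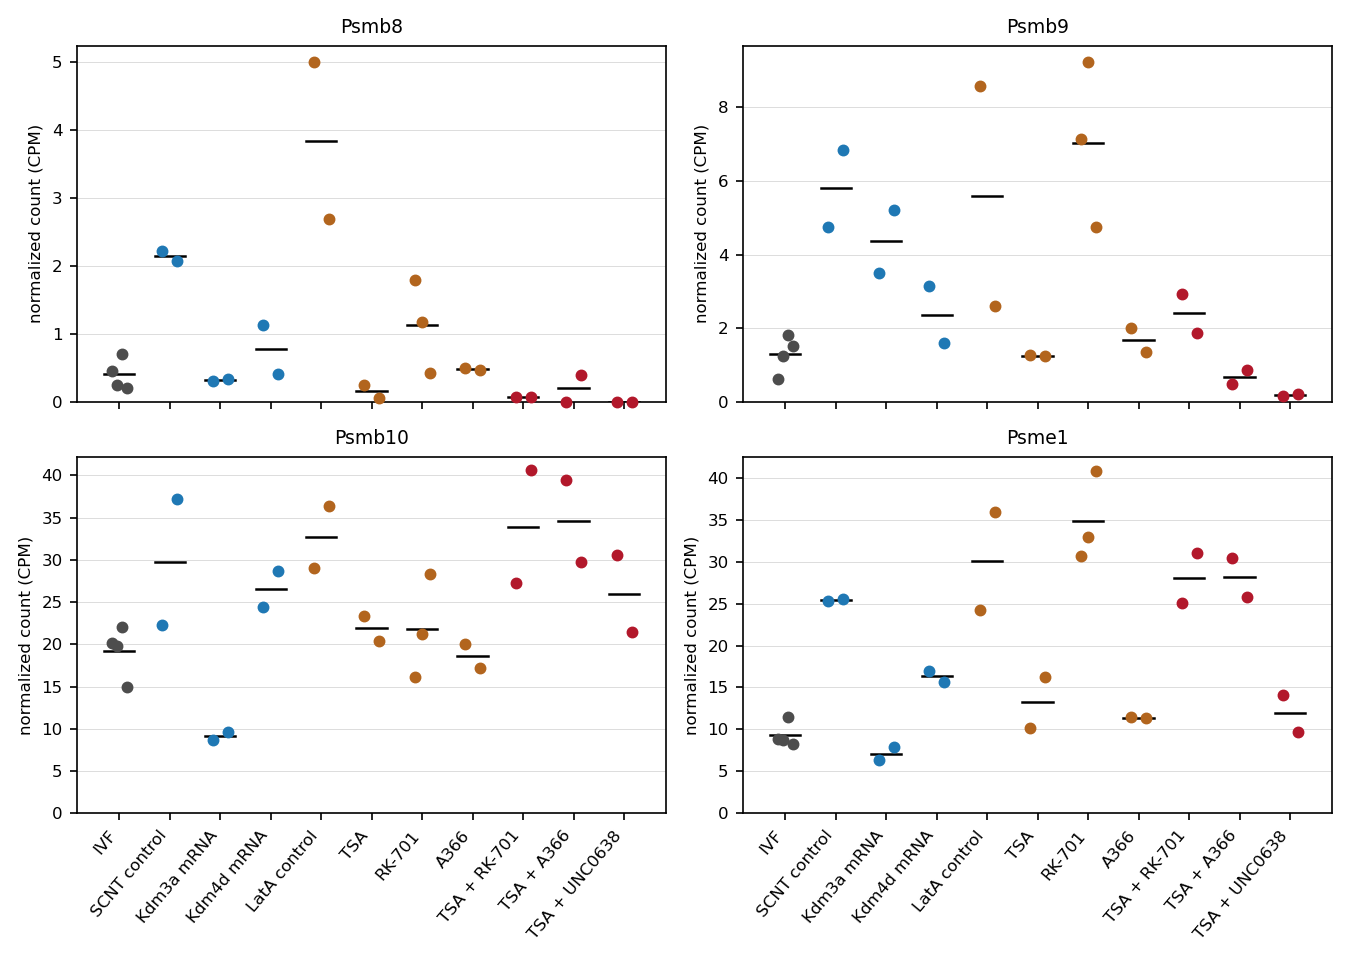
Normalized counts (CPM) of the inducible catalytic subunits *Psmb8*, *Psmb9* and *Psmb10* and of the activator subunit *Psme1* in the 11 groups, with 1 point per library, a bar at the group mean and axes that start at 0. *Psmb8* is highest in the LatA controls (4.99 and 2.7 CPM) and at 0 in both libraries with TSA and UNC0638, *Psmb10* is lowest with *Kdm3a* mRNA (8.64 and 9.66 CPM), and *Psme1* is lowest with *Kdm3a* mRNA (6.34 and 7.87 CPM).

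Whether a co-treatment differed from the sum of its single drugs was tested as an interaction on the log2 scale. With TSA and RK-701, 10 members exceeded the sum and none fell short of it, where 2.3% of genes were called (1.54% above the sum and 0.764% below), and the median was 0.81 over the members and -0.02 over all genes. With TSA and A366, 10 members exceeded the sum and none fell short, where 1.88% were called (1.31% above and 0.566% below), with medians of 0.96 and -0.02. *Psmd14* held 305 and 191 CPM in controls, 147 and 209 CPM with TSA, 226, 262 and 254 CPM with RK-701, 198 and 178 CPM with A366, 508 and 606 CPM with TSA and RK-701 and 545 and 498 CPM with TSA and A366. Only the co-treated libraries rose above the control range, and the excess of *Psmd14* over the sum was 1.65 ± 0.32 with RK-701 (adjusted p = 0.00849) and 1.95 ± 0.34 with A366 (adjusted p = 0.00448).

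*Psma1* held 154 and 114 CPM in controls, 95.1 and 122 CPM with TSA, 126 to 150 CPM with RK-701, 117 and 120 CPM with A366 and 215 to 286 CPM over the 4 co-treated libraries, with an excess of 1.32 ± 0.29 and 1.27 ± 0.30. *Psma3* and *Psmb2* also passed in both tests. Called with RK-701 were *Psma4*, *Psma6*, *Psmb4*, *Psmd5*, *Psmd7* and *Psmg2* besides, and with A366 *Psmb3*, *Psmc1*, *Psmc2*, *Psmc4*, *Psme1* and *Psmf1*. The excess of *Psme1* with A366 was 2.48 ± 0.41 (adjusted p = 0.00349): A366 alone (11.5 and 11.3 CPM) and TSA alone (10.2 and 16.3 CPM) lay below the controls, and the co-treatment (30.5 and 25.8 CPM) inside their range. Of these genes only *Psme1* with A366 remained called through every library left out. The count with RK-701 was 3 and 19 without LatA control replicates 1 and 2, 0 without TSA replicate 1, 3, 6 and 3 without RK-701 replicates 1 to 3, and 5 and 0 without the co-treated libraries. With A366 it was 2 and 24 without LatA control replicates 1 and 2, 1 and 19 without TSA replicates 1 and 2, and 2 without any 1 of the 4 A366 libraries. Fitted with the libraries of each interaction alone, the counts were 1 and 0. Without both libraries that lay apart the counts were 5 and 17, and the medians of the members remained above 0 in every alternative (lowest 0.34 and 0.59).

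**Figure D4:**
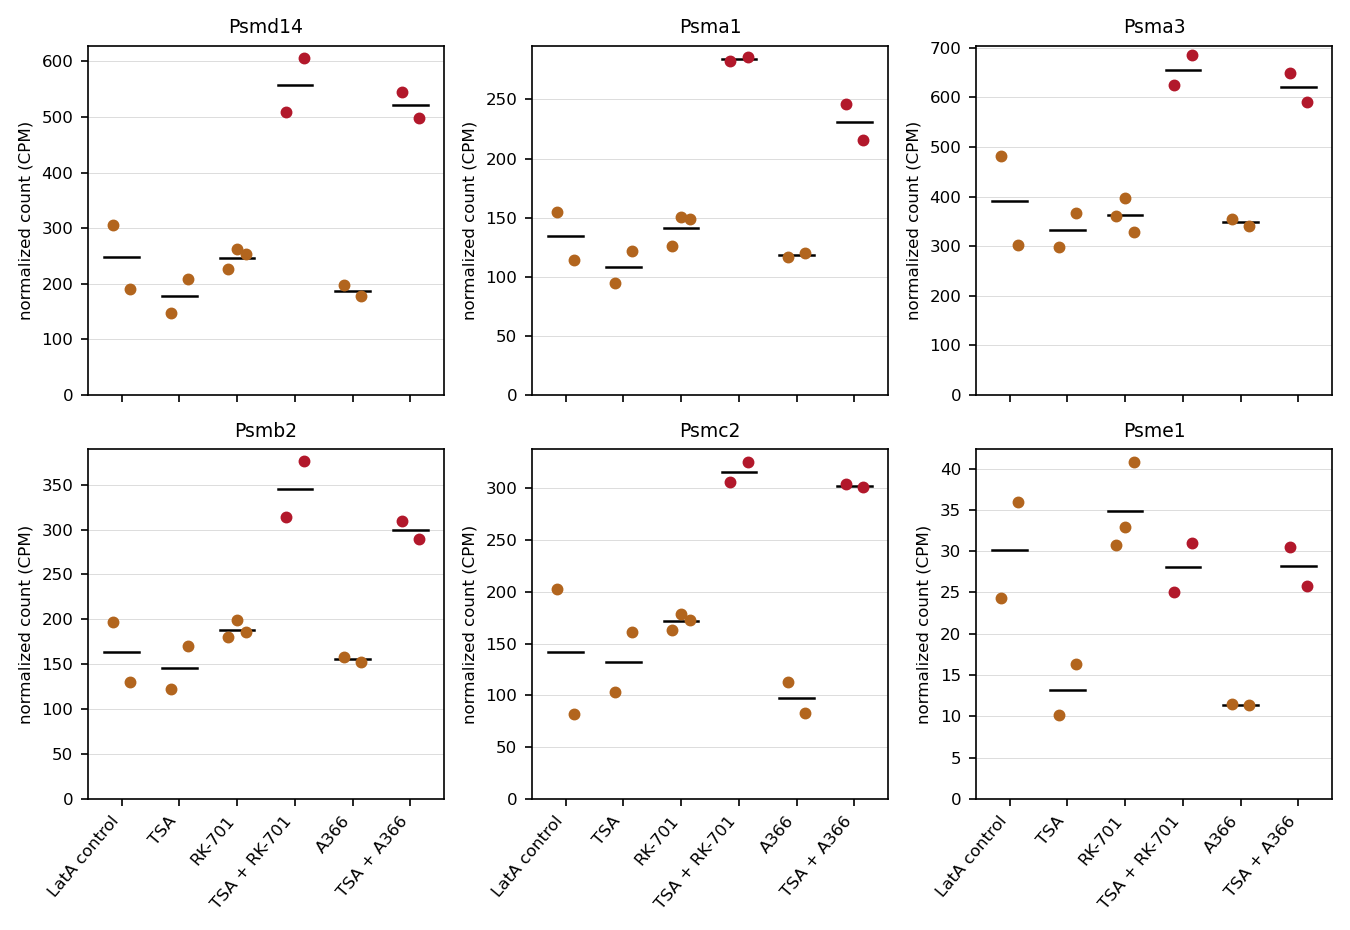
Normalized counts (CPM) of *Psmd14*, *Psma1*, *Psma3*, *Psmb2*, *Psmc2* and *Psme1* in the LatA controls and with TSA, RK-701, A366 and their combinations, with 1 point per library, a bar at the group mean and axes that start at 0. For the first 5 genes the 4 co-treated libraries lie above every library of the control and single-drug groups (*Psmd14*: 498 to 606 CPM against 147 to 305 CPM). For *Psme1* they lie in the control range. The genes drawn were called in an interaction test on these same libraries, so their separation is no further evidence. *Psmb4*, also called, held 73.1 to 103 CPM when co-treated and 87.2 and 89.7 CPM in controls. Against the LatA controls alone, 22.3% (TSA and RK-701) and 22.1% (TSA and A366) of all genes lay higher without overlap.

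The 3 G9a inhibitors were given at the same dose and time, which allowed 4 comparisons between them. Without TSA, A366 and RK-701 differed in 16 members, where 12.9% of genes were called (6.83% higher and 6.11% lower with A366). *Psmb4*, *Psme3* and *Psmg4* were higher and 13 were lower with A366, among them *Psme1* (-1.61 ± 0.28, adjusted p = 0.000242), *Psmf1* (-1.44 ± 0.26, adjusted p = 0.000408), *Psmb9*, the ATPases *Psmc1*, *Psmc3* and *Psmc4*, and *Psmd1*, *Psmd12* and *Psmd13*. *Psmf1* held 13.9 and 16.6 CPM with A366 and 38.1 to 44.8 CPM with RK-701. *Psme1* and *Psmf1* remained called through every library left out, and the count was 6 and 2 without A366 replicates 1 and 2. With TSA, A366 and RK-701 differed in no member in edgeR's test (2 at an unadjusted p under 0.05, none by DESeq2), and in no gene of 25794 (998 at an unadjusted p under 0.05). This does not show that they act alike: the 95% interval of the log2 difference was -0.56 to 0.37 for *Psmd14* and -0.78 to 0.16 for *Psmd7*. With TSA, UNC0638 and RK-701 differed in 3 members, all lower with UNC0638, where 1.21% of genes were called (0.43% lower): *Psmb3* (132 and 137 CPM with RK-701, 76.6 and 59.5 CPM with UNC0638; -0.98 ± 0.21, adjusted p = 0.018), *Psme1* (-1.24 ± 0.29, adjusted p = 0.0279) and *Psmb9* (adjusted p = 0.0139). UNC0638 and A366 differed in *Psme1* (-1.24 ± 0.29, adjusted p = 0.0293), where 1% of genes were called. With a library left out, at most 1 member was called between UNC0638 and RK-701 and none between UNC0638 and A366.

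Against IVF embryos, *Psma7* and *Psmb3* were higher in each of the 8 treated groups. The other 20S subunits that differed in untreated embryos were not: *Psma4*, *Psma5*, *Psma6* and *Psmb4* were called higher in some groups only, *Psmb5* was called in none, and *Psmb2* was lower with TSA and with A366 but higher with TSA and RK-701. TSA and RK-701 had 28 members higher and 1 lower, where 18.5% of genes were called (10.5% higher and 7.98% lower), and the median was 0.68. The largest rises were those of *Psma7* (2.23 ± 0.22, adjusted p = 6.57e-08), *Psmg2* (2.07 ± 0.27), *Psmb3* (1.96 ± 0.18), *Psma5* (1.61 ± 0.27), *Psme1* (1.58 ± 0.24) and *Psma6* (1.58 ± 0.19), and *Psme4* was lower (-0.71 ± 0.16). *Psmb3*, a beta subunit, held 30.5 to 37.0 CPM in IVF embryos and 132 and 137 CPM here. Without TSA and RK-701 replicate 2 the count was 15, and 13 of the genes remained called through every library left out. TSA and A366 had 15 members higher and none lower, where 9.21% of genes were higher and 7.13% lower (16.3% in all). TSA and UNC0638 had 13 higher and 2 lower, where 8.91% and 6.06% of genes were (15% in all). With *Kdm3a* mRNA 13 were higher and 2 lower, where 10.5% and 8.78% of genes were (19.3% in all), and with *Kdm4d* mRNA 14 and 1, where 8.33% and 6.16% were (14.5% in all). RK-701 had 13 higher and 3 lower, beside 9.82% and 9.51% of genes (19.3% in all). TSA had 5 higher and 8 lower, beside 11.6% and 10.1% (21.7% in all), and A366 had 8 higher and 10 lower, beside 11.8% and 10.4% (22.1% in all). *Psme4* was lower in 5 of the groups and was not called with RK-701 (810 to 972 CPM), TSA and A366 (814 and 800) or TSA and UNC0638 (820 and 766). *Psmb10* was below IVF embryos (14.9 to 22 CPM) with *Kdm3a* mRNA (-1.07 ± 0.28, adjusted p = 0.00691). Counts moved beyond 1.5 times without *Kdm3a* replicate 2 (5), *Kdm4d* replicate 2 (8), TSA replicate 1 (3), A366 replicates 1 and 2 (8 and 5) and TSA and UNC0638 replicates 1 and 2 (6 and 9). Scaled by totals alone, the calls were 10 higher and 4 lower with TSA, 19 and 0 with RK-701 and 10 and 5 with A366.

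Genes around the proteasome were counted from 4 lists, to be read beside the shares of all genes called higher in the co-treatments (6.42% with RK-701, 5.97% with UNC0638 and 5.78% with A366). Of 10 other subunits and bound enzymes, 4 were higher with TSA and RK-701: *Sem1*, the smallest 19S subunit (1.06 ± 0.17, adjusted p = 0.000336), *Usp14* (1.30 ± 0.34) and *Uchl5* (0.83 ± 0.24), the deubiquitinases bound to the 19S particle, and *Pomp*, the 20S maturation factor (0.92 ± 0.21). With A366 in place of RK-701, 3 were (*Sem1*, *Usp14* and *Pomp*), and with UNC0638 *Sem1* was. Of 11 genes of transcriptional control, 2, 2 and 3 were higher, all of them NF-Y subunits (*Nfyb* and *Nfyc*, and with UNC0638 *Nfya*), and *Nfe2l1*, which encodes Nrf1, an activator of proteasome genes, was lower with A366 (-1.07 ± 0.33) and with UNC0638 (-1.04 ± 0.33). *Nfe2l1* averaged 31.7 and 32.4 CPM in these groups and 35.0 CPM with TSA and RK-701, where it was not called. The LatA controls averaged 66.7 CPM with an SD of 39.7 over 2 libraries. Of 10 shuttle factors and genes of the Vcp unfoldase, none was higher with RK-701, *Faf2* and *Nploc4* were with A366 and *Faf2* with UNC0638. Of 5 ubiquitin genes and activating enzymes, *Uba6* was higher in each co-treatment and *Rps27a* with RK-701. Untreated SCNT embryos, where 29.2% of all genes were called, differed from IVF embryos in 11 genes of these lists, namely *Sem1* (-0.73 ± 0.12), *Ube3c* (-0.53 ± 0.14), *Nfe2l2*, which encodes Nrf2 (-1.59 ± 0.22, adjusted p = 3.44e-06), *Ngly1* (-0.83 ± 0.24), *Vcp* (-0.75 ± 0.16), *Ubqln1* (-0.71 ± 0.15), *Nsfl1c* (-0.61 ± 0.23) and *Uba6* (-0.41 ± 0.15), all lower, and *Zfand5* (0.64 ± 0.16), *Ufd1* (0.56 ± 0.19) and *Faf2* (0.46 ± 0.16), which were higher. With RK-701 alone (5.47% of all genes called) *Nfe2l2* (1.29 ± 0.29) and *Uba6* (0.94 ± 0.20) were higher and *Zfand5* was lower (-0.96 ± 0.21), and with *Kdm3a* mRNA (6.14%) *Sem1* (0.59 ± 0.17) and *Nfyc* (0.63 ± 0.19) were higher.

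The members called in none of the 25 comparisons were *Psma8*, *Psmc6*, *Psme2*, *Psme2b* and *Psmg1*. *Psma8* held 0.235 to 2.23 CPM and *Psmc6*, an ATPase, 56.3 to 141 CPM. The X-linked *Psmd10*, which encodes the 19S chaperone gankyrin, held 4.15 to 20.5 CPM. In a fit that included the sex chromosomes (26817 genes) *Psmd10* was called higher in *Kdm4d*-injected than in IVF embryos (20.5 and 14.5 CPM against 4.34 to 8.52 CPM; log2 1.30 ± 0.38, adjusted p = 0.0195) and in no other comparison. The cumulus donors were female and the sex of the IVF embryos is not given in the labels, so sex and method cannot be told apart for this gene.

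**Figure D5:**
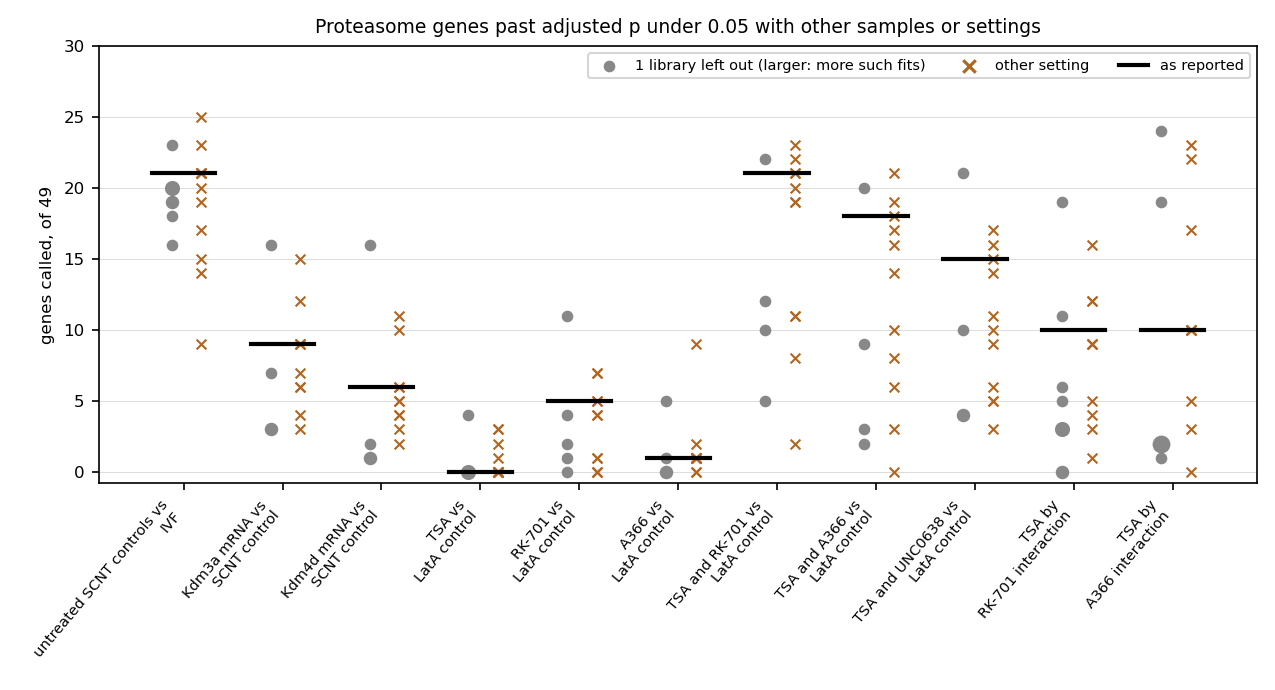
Number of the 49 members called (adjusted p under 0.05) in 11 comparisons: black bars as reported, grey points with 1 library left out, crosses under other settings such as another control, scaling or filter. The count against IVF ranges from 16 to 23 with a library left out, that for TSA and RK-701 from 5 to 22 and that for the TSA by A366 interaction from 1 to 24.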

How the data were processed

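RNA-seq libraries were made from embryo pools with the SMART-Seq HT kit. The authors trimmed reads with Trimmomatic 0.36, aligned them with STAR 2.7.5c, keeping unique alignments, to mm10 (build per the submitters' processing notes) and counted pairs with featureCounts 1.6.2 without strand against genes and repeats together, so that pairs overlapping more than 1 feature were not counted. They deposited raw counts per gene and repeat copy. They used DESeq2 1.16.1, which was an alternative here (version 1.42.0).

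Counts of the gene rows (55375, of which 55134 had a symbol) were analysed in R 4.3.3 with edgeR 4.0.16 and limma 3.58.1, and promoter windows and figures in Python 3.11.15. Of the gene rows, 25794 were autosomal and averaged 1 read or more per library, and entered one quasi-likelihood model with 11 group terms and TMM factors (0.883 to 1.16; common dispersion 0.136). A gene was called at a Benjamini-Hochberg adjusted p under 0.05 within a comparison. CPM values use the TMM-scaled library size. TPM values divide counts by the length of merged exons and are scaled to a common total over autosomal genes. No 2 libraries of a group agreed within sampling noise (lowest chi-square per degree of freedom 7.34 within groups).

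Replicate numbers are shared between groups. Deviations from group means correlated between same-numbered libraries at -0.112 to 0.053 over 111 pairs, none over 0.1, so the numbers did not pair the samples.

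Members, gene lists and comparisons were chosen with earlier results of these data known, and the promoter motifs after values of these genes had been seen. Named were the called members, up to 15 per comparison by size of change, and *Psmb8*, *Psmb9*, *Psmb10*, *Psmb11*, *Psma8*, *Psme1*, *Psme2*, *Psme4*, *Psmd10* and *Psmc3ip* whatever their values. Further members are named where counts by role are given. Alternatives were RLE factors, totals without factors, other filters, inclusion of the sex chromosomes, DESeq2, a fold change over 2, the replicate number as a block, a fit of only the libraries compared, the other control group and each library left out. Leaving out both libraries that lay apart was added after the data were seen. The scripts were tested on simulated data. Repeat counts were not used here.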

Additional observations from a re-analysis of the deposited data

Results flagged for a closer look

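Within the 4 IVF libraries, *Psma7* was high in replicate 3 (68.1 CPM, the others 48.4 to 51.4), *Psmd13* was low in replicate 2 (26.4 CPM, the others 43.4 to 45.7) and *Psme2b* was high in replicate 4 (1.67 CPM, the others 1.24 to 1.31). In each, the gap to the next library took up more of the group's range (0.847, 0.881 and 0.850) than Dixon's 95% critical value for 4 samples, 0.829. All 50 members were examined in this way, and chance alone gives such a gap in about 1 group in 20. The untreated controls exceeded every IVF library in *Psma7*, replicate 3 included.

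The effect of an inhibitor differed with and without TSA, by a test of the interaction in edgeR, for the following members. With RK-701 the log2 difference was 1.32 for *Psma1*, 1.09 for *Psma3*, 0.97 for *Psma4*, 1.13 for *Psma6*, 1.04 for *Psmb2*, 1.32 for *Psmb4*, 1.65 for *Psmd14*, 1.12 for *Psmd5*, 1.26 for *Psmd7* and 1.87 for *Psmg2*. With A366 it was 1.27 for *Psma1*, 1.07 for *Psma3*, 1.11 for *Psmb2*, 1.38 for *Psmb3*, 1.44 for *Psmc1*, 1.74 for *Psmc2*, 1.53 for *Psmc4*, 1.95 for *Psmd14*, 2.48 for *Psme1* and 1.47 for *Psmf1*. Both interactions use the same LatA control and TSA libraries. In 16 of the 20 the members are subunits of the 20S or 19S particle, and the others are the chaperones *Psmd5* and *Psmg2*, the activator subunit *Psme1* and the inhibitor *Psmf1*.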

How the results depend on the processing

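No direction of a called member reversed: of 3990 refits of 273 calls (members not called and genes around the proteasome were not refitted), 3083 stayed on the same side of the threshold and 907 no longer passed it. Counts of called members moved beyond 1.5 times as follows, and the cause was not tested. With a fold change over 2 required in addition, 9 of the 49 members passed in untreated SCNT against IVF embryos. There, 18.8% of all genes passed, and the brackets below hold this share for each comparison. Against its own control, *Kdm3a* kept 3 (4.16%), *Kdm4d* 2 (3.14%) and RK-701 0 (3.35%). The co-treatments kept 11 for RK-701 (6.19%), 6 for A366 (5.98%) and 5 for UNC0638 (6.21%). Compared with IVF embryos, *Kdm3a* kept 7 (12.8%), *Kdm4d* 8 (9.31%), TSA 1 (14.9%), RK-701 4 (11.8%) and A366 4 (15.2%). In the same comparison, TSA and RK-701 kept 12 (12.2%) and TSA and UNC0638 8 (9.84%). Between A366 and RK-701 the count was 4 (8.08%). DESeq2 gave 3 with TSA, 2 between the injections and 22 in the TSA by A366 interaction. Totals without factors gave 3 with *Kdm4d*, 1 with TSA, 11, 8 and 6 in the co-treatments and 4 and 5 in the interactions with RK-701 and A366. Without a filter the counts were 10 with *Kdm4d*, 2 with TSA, 5 between UNC0638 and RK-701 and 2 between UNC0638 and A366 (each with TSA), and 16 and 23 in the interactions. Fitting only the libraries compared gave 0 with RK-701, 0 with A366, 2, 0 and 3 in the co-treatments, 1 and 0 in the interactions, 2 between UNC0638 and A366, and, against IVF embryos, 26 with *Kdm4d* and 31 with TSA and A366. With the LatA controls in place of the SCNT controls the counts were 15 with *Kdm3a* and 11 with *Kdm4d*, and with the SCNT controls in place of the LatA controls 3 with TSA, 1 with RK-701, 2 with A366, 10 with TSA and A366 and 9 with TSA and UNC0638.

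With the replicate number as a block, a number the groups share with no sign of pairing, the counts were 4 with *Kdm3a*, 1 with RK-701, 0 with A366, 8 and 9 with TSA and A366 against IVF embryos and 3 in each interaction. Without both libraries that lay apart, chosen after seeing the data, they were 0 with RK-701, 9 with A366, 8, 3 and 5 in the co-treatments, 6 with TSA against IVF embryos and 5 and 17 in the interactions.

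With 1 library left out, the counts ranged from 16 to 23 for untreated SCNT against IVF embryos, 3 to 16 for *Kdm3a*, 1 to 16 for *Kdm4d*, 0 to 4 for TSA, 0 to 11 for RK-701, 0 to 5 for A366, 5 to 22, 2 to 20 and 4 to 21 for the co-treatments, and 0 to 19 and 1 to 24 for the interactions. Against IVF embryos they ranged from 5 to 14 for *Kdm3a*, 8 to 14 for *Kdm4d*, 3 to 12 for TSA, 11 to 16 for RK-701, 5 to 18 for A366, and 15 to 29, 11 to 15 and 6 to 15 for the co-treatments. They were 0 throughout between the injections, between A366 and RK-701 with TSA and between UNC0638 and A366, 0 to 1 between UNC0638 and RK-701, 0 to 2 between the controls and 2 to 12 between A366 and RK-701 alone. Groups of 2 libraries, a lone sample assumed to vary like the other groups where 1 was left out, and few reads of *Psmb8*, *Psmb9*, *Psmb11* and *Psma8* limit the precision.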

Other observations

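A366 and RK-701, given without TSA, also differed in 13 genes around the proteasome, where 12.9% of all genes were called. *Zfand5*, which encodes a proteasome activator induced in wasting muscle, was higher with A366 (log2 1.79 ± 0.21, adjusted p = 2.84e-06), as were the 19S subunit *Sem1* (1.24 ± 0.15, adjusted p = 6.02e-06), *Rps27a*, a ubiquitin fusion gene (0.84 ± 0.20), and *Ddi2*, the protease that activates Nrf1 (0.89 ± 0.22), and *Akirin2*, *Txnl1*, *Rad23b*, *Ubqln1*, *Mafg* and *Mafk* (0.62 to 0.85). *Nfe2l2* (-1.71 ± 0.30, adjusted p = 0.00029), *Ubb*, a polyubiquitin gene (-1.28 ± 0.31), and *Uba6* (-0.84 ± 0.20) were lower with A366. In the interactions with TSA, *Ufd1*, a Vcp cofactor, exceeded the sum of the single drugs with RK-701 (1.65 ± 0.37, adjusted p = 0.0165) and with A366 (1.81 ± 0.39, adjusted p = 0.0179), and so did *Uchl5* (1.6 ± 0.33 and 1.35 ± 0.34). With RK-701 *Sem1* (1.14 ± 0.23), *Nfyb* (1.17 ± 0.30) and *Rps27a* (1.24 ± 0.30) did as well. *Nfe2l2* was below IVF embryos in 7 of the 8 treated groups, RK-701 alone being the exception.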
